A study of Rattus norvegicus with 2 samples.

Results

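The lysyl oxidase genes Lox, Loxl1, Loxl2, Loxl3 and Loxl4, the prolyl 4-hydroxylase subunit genes P4ha1 and P4ha2, and the lysyl hydroxylase genes Plod1, Plod2 and Plod3 were examined in rat C6 glioma before and after conversion with small molecules. These 10 genes were chosen by name, for their role in collagen maturation, with earlier results of these data known. A gene was counted as measured when a probe set carried its symbol and no other symbol. On this basis 9 of the 10 genes were measured, out of 18166 named genes on the array. Plod3 was not measured, because its probe set also carries the symbol Mir702. The samples were 1 array of SMiNs and 1 array of undifferentiated C6 glioma. SMiNs were C6 glioma kept for 35 days with 20 μM CHIR99021, a GSK3 inhibitor, and 100 μM forskolin, which raises cAMP. Per the methods of the study, SMiNs were plated on matrigel and grown in serum-free neural induction medium with BDNF and GDNF, and C6 glioma was grown in DMEM with serum. The sample labels instead give the small molecules and the serum medium for both samples. C6 is a single tumor cell line, so both arrays describe that line only. Small molecules, medium, coating and time in culture differed together between the arrays and cannot be told apart.

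Collagen chains are modified inside the cell before they are secreted. Prolyl 4-hydroxylases make the hydroxyproline that keeps the triple helix stable, and lysyl hydroxylases make hydroxylysine, which carries sugars and strengthens cross-links. Both kinds of enzyme need iron, 2-oxoglutarate, oxygen and ascorbate. Lysyl oxidases are copper enzymes that act mostly outside the cell, where they oxidize lysine and hydroxylysine so that collagen and elastin become cross-linked. Brain tissue holds little fibrillar collagen away from vessels and meninges. Several genes of these families, among them P4ha1, P4ha2, Plod2, Lox and Loxl2, are known to be induced by hypoxia in human and rodent cells.

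The signals were log2 values as deposited, so a difference of 1 is a 2-fold difference. All differences are SMiN minus C6 glioma. With 1 array per condition there was no spread between replicates and no test, so folds describe these arrays only. A floor for background was set at 5.05 on the SMiN array and at 4.68 on the C6 glioma array, from 232 probe sets of odorant and vomeronasal receptors. Medians over all 36685 probe sets were 4.85 for SMiNs and 4.79 for C6 glioma. Exactly the same value on both arrays was found for 22.7% of named genes, so an equal value was not read as an unchanged transcript. Of 9 glioma and glial markers, each of which reached the floor of an array, 5 were lower in SMiNs by 2-fold or more and none was higher by as much. Pdgfra had a signal of 6.13 in SMiNs and 10.18 in C6 glioma. Cspg4, which encodes NG2, had 4.89 in SMiNs, below the floor, and 7.99 in C6 glioma. By any amount, 7 of the 9 were lower in SMiNs, 1 was higher and 1 was equal. The higher gene was S100b, with 10.06 in SMiNs and 9.28 in C6 glioma. Sox10 had 8.48 in SMiNs and 8.87 in C6 glioma, and Olig2 had 5.29 on both arrays. Of 12 neuron markers, 10 had a higher and 2 a lower signal in SMiNs, with a median difference of 0.40. Only 8 of the 12 reached the floor of an array. Over all named genes, 60.7% had a difference of 0 or below. The floor itself was higher on the SMiN array, so small differences near it were not read as a gain. Of the 12 markers, only Tubb3 differed by 2-fold or more, with 6.44 in SMiNs and 5.28 in C6 glioma. With a stricter floor, the 99th percentile of the receptor probe sets, the fold of Tubb3 was at least 1.99. Map2 was well above the floor on both arrays and differed little, with 8.58 in SMiNs and 8.44 in C6 glioma. Snap25 had 6.22 in SMiNs and 5.72 in C6 glioma, and Nefm had 5.06 in SMiNs and 5.16 in C6 glioma. Dcx, Stmn2, Nefl and Elavl4 were below the floor on both arrays, and Rbfox3, which encodes NeuN, was below it in SMiNs (4.90) and at 4.94 in C6 glioma.

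Promoter windows from RefSeq (build GRCr8) were found for 8 of the 10 genes, all but Lox and Loxl2. Each window runs from 250 bases before to 50 bases after the annotated start site. They were searched on both strands for ACGTG and GCGTG, the forms of the core of the hypoxia response element, which HIF factors bind. No match overlapped another in the windows of these genes. A window with ACGTG was found for 19.7% of 27457 genes and a window with GCGTG for 31.1%, with at least 1 of these in 42.9%. The windows of 4 genes are shown, with capitals marking the matched letters on either strand. Loxl3 and Plod2 were the members furthest below C6 glioma in SMiNs, Loxl4 was the member furthest above it, and P4ha2, with little difference, had the most matches. They lie at chr4:117098108-117098407, plus strand (Loxl3), chr8:101964068-101964367, plus strand (Plod2), chr1:251365528-251365827, minus strand (Loxl4) and chr10:38743644-38743943, plus strand (P4ha2).
Loxl3: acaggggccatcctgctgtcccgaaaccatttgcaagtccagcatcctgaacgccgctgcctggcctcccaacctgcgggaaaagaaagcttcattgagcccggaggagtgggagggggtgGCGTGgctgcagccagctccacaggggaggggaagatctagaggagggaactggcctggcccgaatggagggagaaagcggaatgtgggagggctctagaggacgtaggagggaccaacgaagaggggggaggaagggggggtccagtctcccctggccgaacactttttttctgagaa
Plod2: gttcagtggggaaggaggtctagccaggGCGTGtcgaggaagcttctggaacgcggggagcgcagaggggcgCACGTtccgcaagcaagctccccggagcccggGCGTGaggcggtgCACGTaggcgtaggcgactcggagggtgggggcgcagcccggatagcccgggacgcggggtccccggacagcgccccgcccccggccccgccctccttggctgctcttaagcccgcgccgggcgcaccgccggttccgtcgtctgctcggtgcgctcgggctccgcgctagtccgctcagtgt
Loxl4: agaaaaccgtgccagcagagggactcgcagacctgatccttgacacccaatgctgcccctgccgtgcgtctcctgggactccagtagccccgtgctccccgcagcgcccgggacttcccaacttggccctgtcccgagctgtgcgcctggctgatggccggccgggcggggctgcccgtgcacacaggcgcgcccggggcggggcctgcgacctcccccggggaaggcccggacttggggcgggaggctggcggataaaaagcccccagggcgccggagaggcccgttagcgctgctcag
P4ha2: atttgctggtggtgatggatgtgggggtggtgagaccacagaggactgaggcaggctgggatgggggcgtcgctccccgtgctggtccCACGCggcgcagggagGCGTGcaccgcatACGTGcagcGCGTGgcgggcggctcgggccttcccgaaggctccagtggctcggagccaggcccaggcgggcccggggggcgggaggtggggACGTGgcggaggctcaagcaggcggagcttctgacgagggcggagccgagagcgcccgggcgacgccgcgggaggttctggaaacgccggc

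Loxl3 held 1 match, a GCGTG that begins 129 bases before the start site. Plod2 held 2 matches to ACGTG and 2 to GCGTG. P4ha2 held 2 matches to ACGTG and 3 to GCGTG, and P4ha1 held 1 and 2. Plod1 held 1 match to GCGTG and Plod3 held 2, with no ACGTG in either. Loxl1 and Loxl4 held no match to either form. The windows with ACGTG were those of P4ha1, P4ha2 and Plod2. Lox and Loxl2, also named above as induced by hypoxia, had no window. Shares over windows of like GC content were not computed, and a link of the matches to hypoxia was not tested. The GC content of the windows ran from 61.0% (Loxl1) to 73.7% (Plod2), above the median of 52.3% over all windows. A match shows only that the letters are present.

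**Figure D1:**
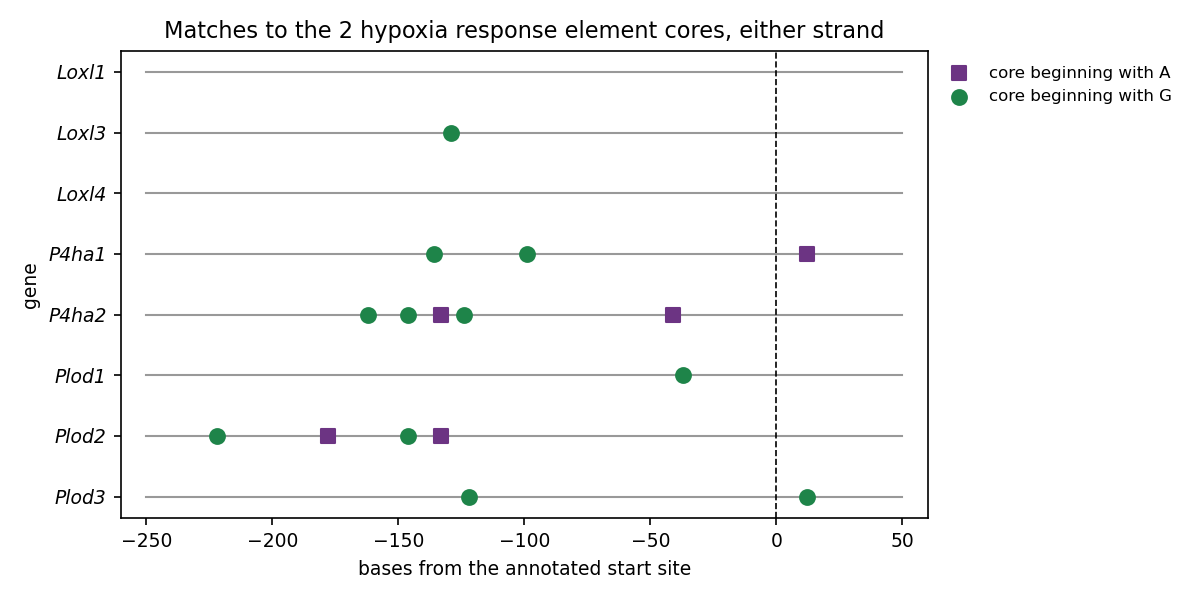
Matches to the 2 forms of the hypoxia response element core in the promoter windows of 8 genes, plotted by the distance of the first matched base from the annotated start site in bases. Squares mark ACGTG and circles GCGTG on either strand. P4ha1, P4ha2 and Plod2 carry squares, and Loxl1 and Loxl4 carry no symbol.

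Of the 9 measured genes, 3 had signals lower in SMiNs than in C6 glioma by 2-fold or more and 1 had a signal higher by as much. Over all named genes, 8.12% were at least 2-fold lower and 4.27% at least 2-fold higher. Loxl3, Plod2 and Loxl1 were the lower genes, and Loxl4 was the higher gene. Among the other 5 genes, 3 had lower signals in SMiNs by less than 2-fold, 1 had a higher signal and 1 was equal on both arrays. The floor was reached on either array by 8 of the 9 genes. Of the 11427 named genes that reached it, 12.8% were lower in SMiNs by 2-fold or more and 5.57% were higher by as much. The median difference over the 9 genes was -0.21, beside 0 over all named genes, and the mean was -0.66. The median of 0 covers genes below the floor and the 22.7% with equal values. It is therefore no matched comparison for genes above the floor, and a median over those was not computed. The same limit holds for the medians of the gene lists below.

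**Figure D2:**
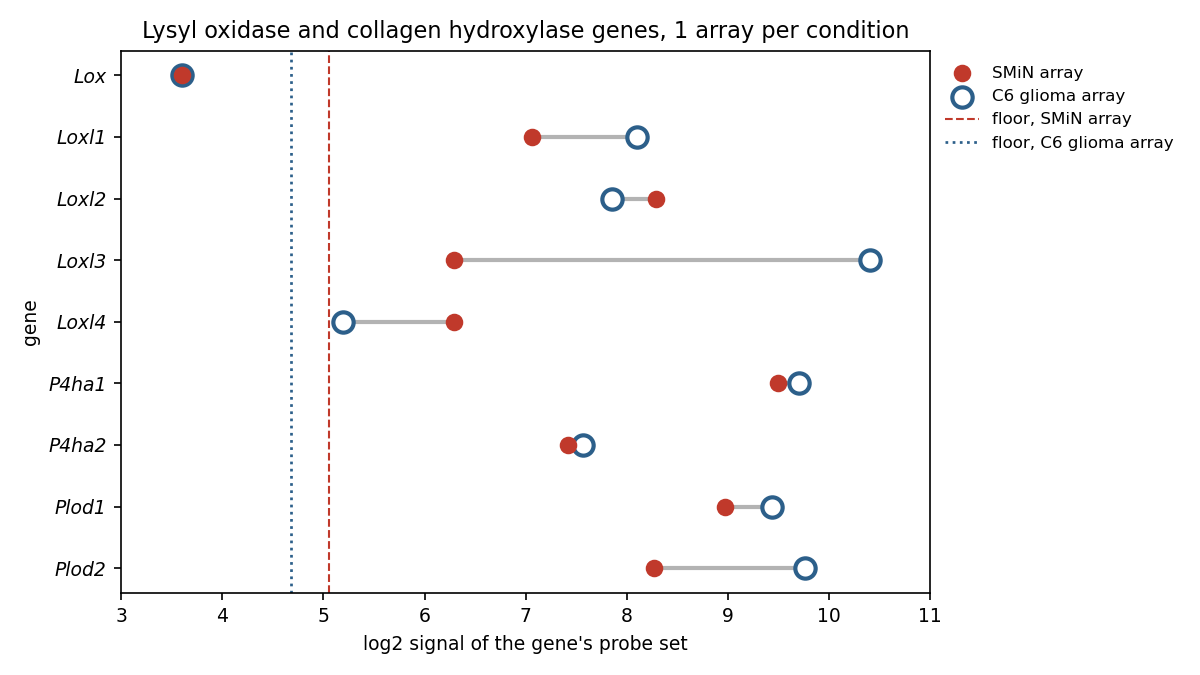
Log2 signal of each of the 9 measured genes on the SMiN array (filled red) and on the C6 glioma array (open blue), 1 array per condition. Vertical lines mark the floor of each array, 5.05 for SMiNs and 4.68 for C6 glioma. The longest line is that of Loxl3, with 6.29 in SMiNs and 10.40 in C6 glioma, and Lox lies left of both floors.

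Loxl3, a lysyl oxidase needed in mice for palate and cartilage development, differed most. Its log2 signal was 6.29 in SMiNs and 10.40 in C6 glioma, 17.3-fold lower in SMiNs. Only 10 of the 18166 named genes, Loxl3 included, had a difference as low. The SMiN signal was still 1.24 above the floor of its array, while the C6 glioma signal was 5.72 above its floor. The signal was therefore far above background in C6 glioma and much closer to it in SMiNs. In the RefSeq table (GRCr8), Loxl3 overlaps Htra2, which encodes a mitochondrial protease. Htra2 had a signal of 5.97 in SMiNs and 7.61 in C6 glioma, a difference of -1.64. The neighbor on the other side, Dok1, which encodes a docking protein of tyrosine kinase signaling, had 5.35 in SMiNs and 7.56 in C6 glioma. The next measured gene beyond Htra2, Aup1, had 8.73 in SMiNs and 8.98 in C6 glioma. Whether shared sequence contributed to these values was not tested, since the positions of the probes were not used here.

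Loxl1, which in mice is required for elastic fiber renewal, had a log2 signal of 7.06 in SMiNs and 8.10 in C6 glioma. This was 2.06-fold lower in SMiNs, just past 2-fold. After quantile normalization of the arrays the difference was -0.81, which is less than 2-fold. Its value on the SMiN array was shared exactly by 21 probe sets. By comparison, 62.1% of all probe sets on this array had a value of their own.

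Loxl4 was the only member at least 2-fold higher in SMiNs. Like Loxl2 and Loxl3, it encodes a lysyl oxidase with scavenger receptor domains ahead of the catalytic domain. Its log2 signal was 6.29 in SMiNs and 5.19 in C6 glioma, 2.15-fold higher in SMiNs, and 3.43% of named genes had a difference as high. The C6 glioma signal lay only 0.51 above the floor of that array and was shared exactly by 73 probe sets. With the stricter, 99th percentile floor the fold was at least 1.80, so that no member was then higher by 2-fold or more.

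Loxl2, which oxidizes collagen IV in basement membranes, had a log2 signal of 8.29 in SMiNs and 7.85 in C6 glioma, a 1.36-fold higher signal in SMiNs. Both values were more than 3 log2 units above the floor. Lox, the founding member of the family, had a log2 signal of 3.60 on both arrays, below the floor on both, and no fold is given. That value was held by 71 probe sets on the SMiN array and by 204 on the C6 glioma array. No transcript of Lox above background was therefore measured in either condition.

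The lysyl oxidases thus differed in opposite directions on the same arrays, with differences that spanned 5.21 on the log2 scale. Relative to Loxl3, the difference was greater by 5.21 for Loxl4, by 4.55 for Loxl2 and by 3.07 for Loxl1. Signals were not compared between genes, because each probe set responds differently to its transcript.

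**Figure D3:**
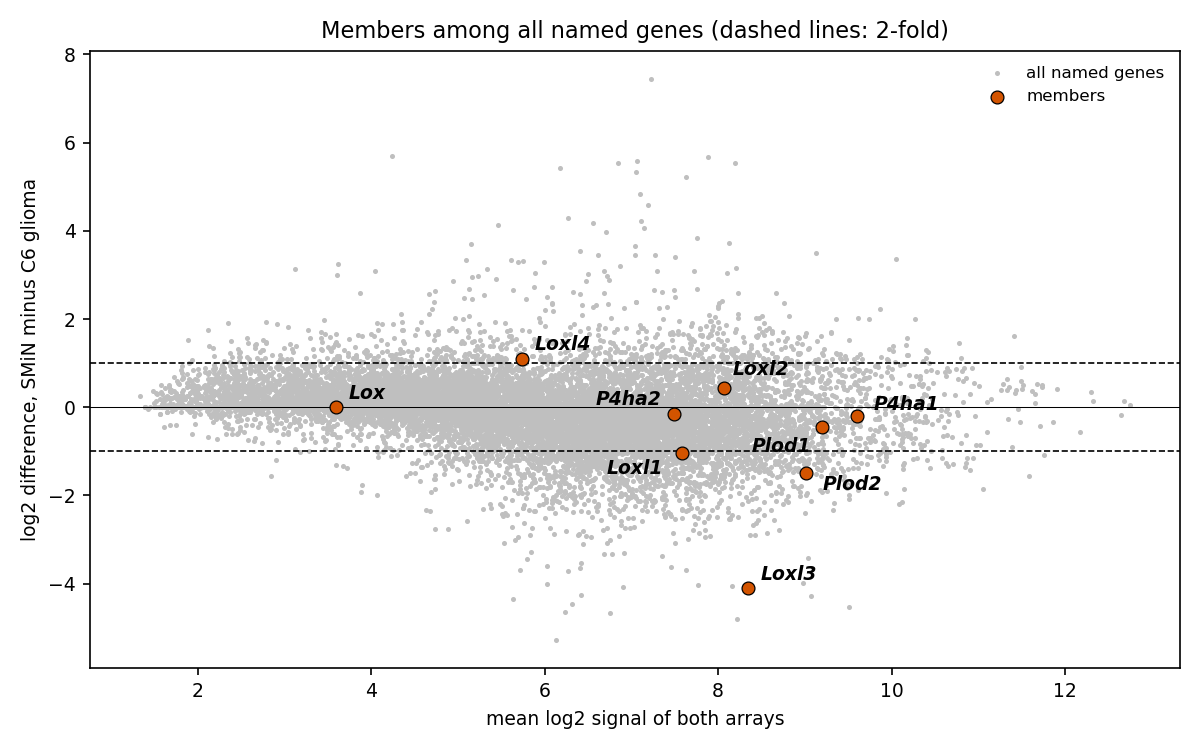
Log2 difference (SMiN minus C6 glioma) against the mean log2 signal of both arrays, for all 18166 named genes (gray) and the 9 measured genes (orange). Dashed lines mark 2-fold. Loxl3 lies at -4.11 among the lowest points, Loxl4 at 1.10 lies just above the upper dashed line and P4ha1 and P4ha2 lie near 0.

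P4ha1 and P4ha2 differed little between the arrays. P4ha1, which encodes the main catalytic subunit in most cells, had a log2 signal of 9.49 in SMiNs and 9.70 in C6 glioma, 1.16-fold lower in SMiNs. P4ha2, which encodes a second form of this subunit, had 7.42 in SMiNs and 7.57 in C6 glioma, a difference of -0.15, or 0.07 after quantile normalization. Both genes were at least 2 log2 units above the floor on both arrays.

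Of the lysyl hydroxylases, Plod2 differed more than Plod1. Plod2 encodes the form that hydroxylates the ends of collagen chains, the telopeptides, where cross-links start. Its log2 signal was 8.27 in SMiNs and 9.76 in C6 glioma, 2.81-fold lower in SMiNs, and 3.33% of named genes had a difference as low. Plod1, which encodes the form that acts mainly on the helical part, had 8.97 in SMiNs and 9.43 in C6 glioma, 1.38-fold lower in SMiNs. The difference of Plod1 exceeded that of Plod2 by 1.03, a 2.04-fold change of the ratio between the genes.

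Partners of the hydroxylases were examined next. Counts in all gene lists, marker lists included, are to be read beside the shares over all named genes. These were 8.12% lower and 4.27% higher by 2-fold or more, or 12.8% and 5.57% of those that reached the floor. Of 8 genes listed as partners of prolyl hydroxylation, 4 were lower in SMiNs by 2-fold or more and none was higher by as much. Their median difference was -1.33. P4ha3, another form of the catalytic subunit, had a log2 signal of 4.58 in SMiNs, below the floor, and 8.23 in C6 glioma, at least 9.07-fold lower in SMiNs (at least 4.56-fold with the 99th percentile floor). It differed far more than P4ha1 and P4ha2. P4hb, the subunit that all of these forms share, had 9.78 in SMiNs and 10.38 in C6 glioma, 1.51-fold lower. P3h2, a prolyl 3-hydroxylase that acts on collagen IV, had 5.95 in SMiNs and 9.04 in C6 glioma. It was 8.51-fold lower in SMiNs (at least 7.99-fold with the 99th percentile floor). Crtap, part of the prolyl 3-hydroxylation complex with P3h1 and Ppib, had 5.62 in SMiNs and 8.35 in C6 glioma. It was 6.63-fold lower in SMiNs (at least 4.95-fold with the 99th percentile floor). The other parts of this complex differed by less than 2-fold. P3h1 had 6.70 in SMiNs and 7.30 in C6 glioma, and Ppib had 9.67 in SMiNs and 10.60 in C6 glioma. P3h3 had 6.89 on both arrays. P3h4 was 3.33-fold lower, with 6.54 in SMiNs and 8.27 in C6 glioma. In mice P3h4 joins a lysyl hydroxylase 1 complex in the endoplasmic reticulum. The count and median of the prolyl hydroxylation list include it.

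Of 7 partners of lysine hydroxylation and glycosylation, 3 were lower in SMiNs by 2-fold or more and none was higher by as much. Their median was -0.63. Colgalt2, a collagen galactosyltransferase, had a signal of 5.45 in SMiNs and 7.41 in C6 glioma, 3.89-fold lower (at least 2.57-fold with the 99th percentile floor). Fkbp10, a chaperone needed for the telopeptide activity of lysyl hydroxylase 2, had 7.84 in SMiNs and 9.20 in C6 glioma, 2.57-fold lower. The chaperone Hspa5 was 2.41-fold lower, with 10.00 in SMiNs and 11.27 in C6 glioma. Colgalt1, the more widely expressed galactosyltransferase, had 7.30 in SMiNs and 7.93 in C6 glioma, 1.55-fold lower. Serpinh1, the collagen chaperone HSP47, had the same signal, 5.87, on both arrays.

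Of 10 genes of procollagen export and processing, 2 were lower in SMiNs by 2-fold or more and none was higher by as much. Their median was -0.18, and 7 of them reached the floor of an array. Beside the 12.8% of named genes above the floor that were lower, a count of 2 was not read as a trait of this group. The lower genes were Sec23a, with 7.09 in SMiNs and 8.65 in C6 glioma, and Sec24d, with 7.11 in SMiNs and 8.48 in C6 glioma, both of the vesicle coat that carries procollagen out of the endoplasmic reticulum. Bmp1, the protease that cleaves procollagen and also activates Lox, had 6.05 in SMiNs and 6.41 in C6 glioma.

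**Figure D4:**
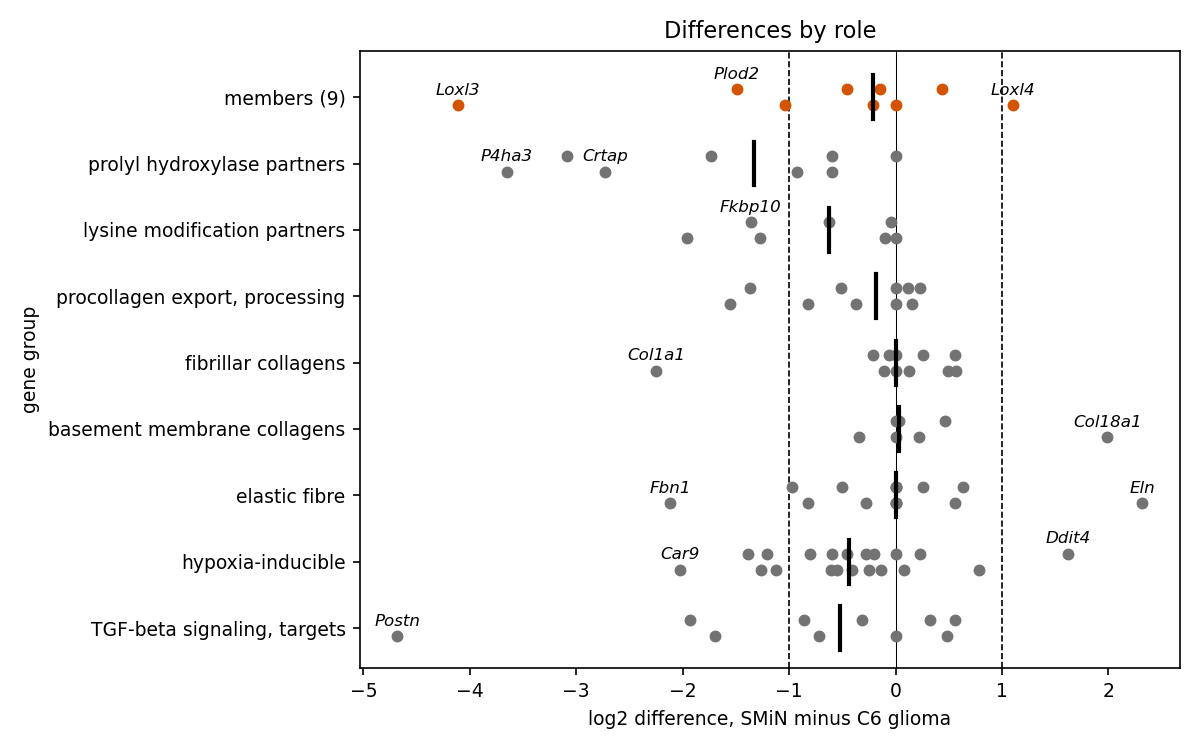
Log2 difference (SMiN minus C6 glioma) of each measured gene, grouped by role, with the 9 lysyl oxidase and hydroxylase genes in orange and other groups in gray. Thick bars mark the median of each group and dashed lines 2-fold. The prolyl hydroxylase partners have the lowest median, -1.33, and no gene of the partner groups lies right of the upper dashed line.

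Of the substrates of these enzymes, fibrillar and basement membrane collagen chains and elastic fiber genes were examined. Collagen VI chains are not in these lists, and Col6a2 and Col6a3 were counted with the fibroblast markers below. Of 11 fibrillar collagen chain genes, only Col1a1 differed by 2-fold or more, with 5.91 in SMiNs and 8.16 in C6 glioma. The median was 0, which is the value of 2 genes with equal signals on both arrays. The other chain of type I collagen, Col1a2, had 5.54 in SMiNs and 5.05 in C6 glioma. Of 7 basement membrane collagen genes, only Col18a1 differed by as much, with 8.36 in SMiNs and 6.37 in C6 glioma, and the median was 0.03. Of 15 elastic fiber genes, 1 was higher and 1 was lower by 2-fold or more, and 12 reached the floor of an array. The median was 0, the value of 6 genes with equal signals on both arrays, so it was not read as no change. The higher gene was Eln, which encodes the elastin that lysyl oxidases cross-link, with 7.76 in SMiNs and 5.43 in C6 glioma. It was 5.01-fold higher in SMiNs (at least 4.95-fold with the 99th percentile floor). The lower gene was Fbn1, the fibrillin of microfibrils, with 6.49 in SMiNs and 8.61 in C6 glioma, 4.34-fold lower. Loxl1 and Eln thus differed in opposite directions.

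Genes induced by hypoxia, among which P4ha1, P4ha2 and Plod2 are often counted, were measured on the same arrays. Of all named genes that reached the floor, 12.8% were lower and 5.57% higher by 2-fold or more. Of 20 genes induced by hypoxia outside the hydroxylases, all of which reached it, 5 were lower in SMiNs and 1 was higher by as much. Their median was -0.43. The lower genes included the carbonic anhydrase Car9, with 7.30 in SMiNs and 9.33 in C6 glioma, and the oxidase Ero1a, with 8.72 in SMiNs and 10.11 in C6 glioma. They also included the glycolytic enzyme Pgk1 (2.40-fold lower) and the mitophagy receptor Bnip3l (2.31-fold lower). Vegfa had 9.40 in SMiNs and 9.54 in C6 glioma. The higher gene was Ddit4, an inhibitor of mTOR signaling, with 8.62 in SMiNs and 7.00 in C6 glioma. Beside the median of -0.43, the differences were -1.49 for Plod2, -0.21 for P4ha1 and -0.15 for P4ha2. Of 10 genes of TGF-beta signaling and its targets, 3 were lower by 2-fold or more and none was higher by as much. Their median was -0.52, and by any amount 6 were lower, 3 were higher and 1 was equal. The higher genes were Smad7, with 6.33 in SMiNs and 5.85 in C6 glioma, Tgfbr1 and Smad2. Tgfbr1 had 7.84 in SMiNs and 7.28 in C6 glioma, and Smad2 had 7.76 in SMiNs and 7.44 in C6 glioma. The matrix protein Postn had 4.41 in SMiNs, below the floor, and 9.09 in C6 glioma, at least 16.4-fold lower (at least 8.24-fold with the 99th percentile floor). Ccn2, a matricellular protein, was 3.80-fold lower. Tgfbi, a matrix protein named for its induction by TGF-beta, was 3.24-fold lower (at least 2.31-fold with the 99th percentile floor). The part of hypoxia or TGF-beta signaling in the values of the collagen enzymes was not tested.

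Markers of fibroblasts, which make much of the collagen of most tissues, were also lower in part. Of 10 fibroblast markers, 6 reached the floor of an array, 3 were lower in SMiNs by 2-fold or more and none was higher by as much. Their mean log2 signal was 5.41 in SMiNs and 6.06 in C6 glioma. Pdgfrb had 5.54 in SMiNs and 7.97 in C6 glioma, and Prrx1 had 8.01 in SMiNs and 9.69 in C6 glioma. The collagen VI chain gene Col6a2 had 5.50 in SMiNs and 7.32 in C6 glioma. Another chain gene, Col6a3, had 5.14 in SMiNs and 5.40 in C6 glioma, and Col6a1 was not among the measured genes. By any amount, 6 of the 10 markers were lower in SMiNs and 4 were higher. Thy1 had 5.58 in SMiNs and 5.30 in C6 glioma. Dcn, Lum and Fap, which define fibroblasts, were below the floor on both arrays. In RNA from whole cultures, fewer cells with a transcript and less of it per cell cannot be told apart.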

How the data were processed

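Total RNA of 1 SMiN and 1 C6 glioma sample was measured on Affymetrix whole-transcript arrays. The authors labeled whole-transcript cDNA, and used the console software of the scanner's maker for analysis. They deposited a log2 signal for each probe set. How signals were summarized and normalized, and the genome build, is not given in the sources used here. Base 2 was taken because 2 to the power of the differences gives linear folds printed by the study. The number of arrays limits the precision, and no test between conditions was possible.

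Values were used as deposited. Of 36685 probe sets, 18511 had 1 symbol in the platform annotation, 575 had several and 17599 were unnamed here. Of those with 1 symbol, 18394 were found in RefSeq by Entrez number, which changed 0 symbols. For the 291 genes with several probe sets the brightest on average was used. The floor was the 95th percentile of receptor probe sets named Olr, Vom1r or Vom2r, and a fold against a value below it was computed against the floor. The members and 16 gene lists (183 names, 167 measured) were chosen with earlier results of these data known, so they are no independent support. The genes named were all members, fixed direct partners and up to 4 genes each way per list that differed by at least 2-fold. Other genes were chosen after their values were seen. Among them were the neighbors of Loxl3, Vegfa, Snap25, Col1a2, Dcx, Stmn2, Nefl, Elavl4, Rbfox3, Dcn, Lum and Fap. Also among them were S100b, Sox10, Olig2, Map2, Nefm, Thy1, Col6a3, P3h1, Ppib, P3h3, Smad7, Tgfbr1 and Smad2. Counting was tested on simulated data. Alternatives were median centring, quantile normalization, the mean of all probe sets, values under the floor set to it, a filter at the floor, a 1.5-fold threshold and other floors. Python 3.11.15, numpy 2.4.6, pandas 2.3.3 and matplotlib 3.10.9 were used.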

Additional observations from a re-analysis of the deposited data

How the results depend on the processing

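The 3 lower and 1 higher members were counted under each alternative, and the counts moved under 2 of them. With values under the 99th percentile floor set to it, an alternative added after seeing the data, Loxl4 came to 0.85, so that 0 members were higher. That setting also left 1 lower gene in the copper list (Slc31a2 came to -0.19) and 0 higher neuron markers (Tubb3 came to 0.99). It brought Olig1 to -0.51. Further folds became lower bounds: Col1a1 at least 4.34-fold, Pdgfrb 3.8-fold, Col6a2 2.43-fold and Cspg4 3.86-fold lower in SMiNs. Quantile normalization brought Loxl1 to -0.81, short of 2-fold, so that 2 members were lower, and it gave P4ha2 a difference of 0.07. It also changed the counts of 2-fold differences in the copper list to 1 lower, in the list of other 2-oxoglutarate hydroxylases to 1 higher and in the hypoxia list to 2 higher and 4 lower. The ascorbate and 2-oxoglutarate list then had 3 lower genes and the glioma list 4, and Glud1 (-0.92) and Steap3 (-0.93) fell short of 2-fold. Median centring gave 2 lower elastic fiber genes in place of 1. With members below the floor left out, the member median was -0.34. A 99th percentile floor, 6.05 for SMiNs and 5.45 for C6 glioma, left 7 members above it on both arrays, against 8 otherwise. A floor that also used receptors named Or (1360 probe sets), chosen after seeing the data, was 4.89 for SMiNs and 4.79 for C6 glioma and left 8. No paired analysis was possible because there was 1 array per condition.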

Other observations

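Genes that supply the cofactors of these enzymes were also measured. Of 11 genes of copper supply, 1 was higher in SMiNs by 2-fold or more and 2 were lower by as much. Their median was -0.07, and 9 of them reached the floor of an array. Of all named genes that reached it, 5.57% were higher and 12.8% lower by as much. The counts of this list were not read as a trait of the group. The higher gene was Cox17, a copper chaperone of mitochondria, with a log2 signal of 9.53 in SMiNs and 6.93 in C6 glioma, 6.04-fold higher. The lower genes were the metalloreductase Steap3, with 6.13 in SMiNs and 7.25 in C6 glioma, and Slc31a2, a copper transporter, with 5.17 in SMiNs and 6.24 in C6 glioma. After quantile normalization Steap3 differed by -0.93, and with the 99th percentile floor Slc31a2 was at least 1.14-fold lower, both short of 2-fold. Atp7a, the pump that loads copper onto secreted enzymes such as the lysyl oxidases, had 6.15 in SMiNs and 6.23 in C6 glioma. Of 11 genes of ascorbate and 2-oxoglutarate supply, 4 were lower by 2-fold or more and none was higher by as much. Their median was -0.37. The mitochondrial 2-oxoglutarate carrier Slc25a11 was 3.24-fold lower, with 7.23 in SMiNs and 8.92 in C6 glioma. The isocitrate dehydrogenase subunits Idh3a and Idh3b were 2.78-fold and 2.62-fold lower, and Glud1 was 2.06-fold lower (-0.92 on the log2 scale after quantile normalization). By any amount, 6 of the 11 were lower in SMiNs, 3 were higher and 2 were equal. Idh1 had 9.66 in SMiNs and 9.25 in C6 glioma, and Idh2 had 8.67 in SMiNs and 8.61 in C6 glioma. Slc23a2, which takes up ascorbate, had 7.01 in SMiNs and 7.38 in C6 glioma.

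None of 11 other 2-oxoglutarate hydroxylases differed by 2-fold, and their median was -0.10. Egln1, which hydroxylates HIF factors, had 8.28 in SMiNs and 8.84 in C6 glioma, and its paralog Egln2 had 7.06 in SMiNs and 6.19 in C6 glioma. Neither the 6 endothelial markers (median -0.10) nor the 9 markers of microglia and macrophages (median 0) held a gene that differed by 2-fold. Only 3 genes of each group reached the floor of an array. The median of 0 is the value of genes with equal signals on both arrays. The genes Atp7a, Idh1, Idh2, Slc23a2, Egln1 and Egln2 were chosen after their values were seen.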
